A study of Sus scrofa and Bos taurus with 31 samples.

Results

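Spleen was compared with the other 7 tissues of a chromatin accessibility survey in pigs and cattle, using the 4 spleen libraries of the 31 libraries analysed. The members were chosen by their tissue label. They are the spleens of pigs P348 and P350, set against 14 pig libraries of other tissues, and the spleens of cattle M08 and M22, set against 13 cattle libraries of other tissues. The other tissues were lung, liver, skeletal muscle, adipose, cerebral cortex, hypothalamus and cerebellum, each from the same animals, except that cattle cerebellum came from M22 only. The pigs were castrated male Yorkshire littermates aged 6 months, and the cattle were intact male Line 1 Herefords aged 14 months that shared a sire. Each species was thus represented by 2 related untreated males, and no females or other breeds were analysed here. The assay was ATAC-seq on cryopreserved nuclei of whole tissue, in which a transposase inserts adapters into DNA not packed into nucleosomes. Each library is a list of peaks, or intervals with more reads than their surroundings, and each peak has a fold enrichment over those surroundings. These lists hold no read numbers, and sequencing depth was not analysed here, so list length and covered bases are given.

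The spleen filters blood and mounts immune responses to what the blood carries. Its white pulp holds B and T lymphocytes, and its red pulp holds macrophages that take up worn red cells, together with sinus endothelium and stroma. Genes of blood cells are controlled by transcription factors that read short DNA words in open chromatin. Among them are the ETS family (with ETS1, FLI1 and PU.1, the product of SPI1), RUNX, interferon regulatory factors and the octamer factors of B cells. In whole tissue, more cells of a type and more open chromatin per cell cannot be told apart.

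The pig spleen lists held 105278 peaks over 66.28 Mb in P348 and 104299 peaks over 67.77 Mb in P350, and 99960 to 217308 peaks were listed in the 14 other pig libraries. Spleen had the fewest peaks of the 8 pig tissues, but the difference was within the spread of the libraries (exact two-sided permutation p = 0.108 over the 120 choices of 2 of 16 libraries). The cattle spleen lists were less alike, with 111095 peaks over 72.29 Mb in M08 and 194307 peaks over 137.5 Mb in M22, and the other cattle lists held 37204 to 221848 peaks. The smallest p these permutations can give is 0.00833 in pigs and 0.00952 in cattle. Since the 2 libraries of a tissue are alike, tissues are the stricter unit, and a single tissue of 8 cannot reach a p under 0.05.

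Within each species, peaks that shared 1 bp or more were joined into regions, and a region was called open in spleen when both spleen lists had a peak in it. In pigs, 67887 of 533944 regions were open in spleen, of which 3780 (5.57%) were without a peak in the 14 other libraries and 16833 (24.8%) had a peak in every library. In cattle, 81629 of 504914 regions were open in spleen, of which 1809 (2.22%) had no peak in another tissue and 11628 (14.2%) had one in every library. Regions open only in spleen were chosen on this contrast, so the values below describe them without a test. The sequences of 10 of the pig regions are shown first, each as the central 200 bases on the plus strand of Sscrofa11.1. They are the region with the highest fold in the weaker animal, one each in or near FLI1, CD79B, IKZF3, BTK, CBLB and MYC, and for each of 3 words, the region more than 2 kb from a coding TSS and with the word outside masked repeats that had the highest fold in the weaker animal. Capitals mark CAGGAAGT or CCGGAAGT (words of ETS factors), GAGGAAGT (PU.1), TGTGGTTT (RUNX) and ATGCAAAT (the octamer), or their reverse complements. A match is a run of letters, not a measured binding site.

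Near SATB1, chr13:5471097-5471296: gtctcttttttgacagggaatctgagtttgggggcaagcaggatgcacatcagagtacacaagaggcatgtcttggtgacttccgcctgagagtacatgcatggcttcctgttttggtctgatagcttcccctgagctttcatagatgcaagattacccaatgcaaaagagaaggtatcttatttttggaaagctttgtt
FLI1 intron, chr9:55638980-55639179: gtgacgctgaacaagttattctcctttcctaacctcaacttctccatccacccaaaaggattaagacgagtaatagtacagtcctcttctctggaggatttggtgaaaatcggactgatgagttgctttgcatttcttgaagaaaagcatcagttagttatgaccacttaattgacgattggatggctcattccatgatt
Near CD79B, chr12:15058679-15058878: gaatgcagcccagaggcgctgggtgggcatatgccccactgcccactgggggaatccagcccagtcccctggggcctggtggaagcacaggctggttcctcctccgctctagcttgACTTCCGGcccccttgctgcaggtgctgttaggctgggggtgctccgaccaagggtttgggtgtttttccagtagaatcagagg
IKZF3 intron, chr12:22529948-22530147: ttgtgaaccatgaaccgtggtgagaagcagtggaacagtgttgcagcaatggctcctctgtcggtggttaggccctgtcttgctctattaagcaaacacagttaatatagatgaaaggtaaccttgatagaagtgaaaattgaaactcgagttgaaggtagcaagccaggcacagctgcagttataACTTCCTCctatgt
BTK intron, chrX:83011701-83011900: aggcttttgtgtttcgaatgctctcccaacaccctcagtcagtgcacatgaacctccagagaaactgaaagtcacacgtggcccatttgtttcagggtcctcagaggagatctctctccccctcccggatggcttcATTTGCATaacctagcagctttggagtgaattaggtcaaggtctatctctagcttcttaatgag
CBLB intron, chr13:153569905-153570104: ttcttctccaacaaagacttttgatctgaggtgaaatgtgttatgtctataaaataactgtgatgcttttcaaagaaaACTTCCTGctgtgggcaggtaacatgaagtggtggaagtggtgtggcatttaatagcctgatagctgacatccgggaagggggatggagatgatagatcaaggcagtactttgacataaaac
Far from MYC, chr4:11747754-11747953: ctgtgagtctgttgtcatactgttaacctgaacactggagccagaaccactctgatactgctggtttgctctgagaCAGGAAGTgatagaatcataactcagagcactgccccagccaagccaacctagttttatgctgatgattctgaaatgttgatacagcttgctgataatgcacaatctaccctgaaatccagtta
Distal, ETS word, chr9:126744322-126744521: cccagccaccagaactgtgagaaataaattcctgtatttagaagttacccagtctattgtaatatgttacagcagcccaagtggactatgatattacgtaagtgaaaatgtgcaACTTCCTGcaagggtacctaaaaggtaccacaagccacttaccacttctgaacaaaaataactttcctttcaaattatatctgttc
Distal, PU.1 word, chr15:96416488-96416687: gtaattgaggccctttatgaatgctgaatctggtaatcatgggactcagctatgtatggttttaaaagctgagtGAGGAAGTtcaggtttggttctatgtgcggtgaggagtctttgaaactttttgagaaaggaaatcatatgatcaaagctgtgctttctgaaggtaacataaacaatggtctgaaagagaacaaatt
PLCL2 intron, RUNX word, chr13:4049276-4049475: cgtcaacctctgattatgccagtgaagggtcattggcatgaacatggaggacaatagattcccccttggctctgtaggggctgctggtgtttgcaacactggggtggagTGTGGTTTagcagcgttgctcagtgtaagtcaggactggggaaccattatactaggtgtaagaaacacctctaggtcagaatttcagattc

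The first of these belongs to chr13:5470986-5471407, an intergenic region 60.3 kb from the nearest coding TSS, that of SATB1, a chromatin organiser of lymphocytes. Its fold was 9.138 in P348 and 7.093 in P350, and its central 200 bases hold none of the marked words. The other regions among the 5 with the highest fold in the weaker animal lay in an intron of XK (chrX:33589706-33590148, folds 7.098 and 6.917), over the first exon of TMEM156 (chr8:30342431-30342808, 8.272 and 6.677), 266 kb from TACR3 (chr8:117395668-117395990, 6.967 and 6.673) and in an intron of RBM25 (chr7:96460495-96460852, 7.383 and 6.402). Thus 1 of the 5 reached a coding TSS and the rest lay away from one. In cattle the 5 highest were chr20:33773580-33773899 (5.58 in M08 and 6.477 in M22), chr11:36698556-36698871 (4.758 and 6.407), chr11:209327-209855 (4.734 and 8.206), chr6:24838958-24839553 (4.567 and 6.855) and chr15:8035024-8035258 (4.526 and 4.763) on ARS-UCD1.2. Genes of the cattle assembly were not analysed here.

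The regions open only in spleen were narrow and modest in fold. Their median width was 428 bp in pigs, against 1603 bp for spleen regions shared with another tissue, and 660 bp in cattle, against 1538 bp. The median fold was 3.72 in P348 and 3.139 in P350, and 3.056 in M08 and 2.68 in M22. A fold above 5 in both animals was found in 56 of them (1.48%) in pigs and in 1 in cattle, whereas 9755 (15.2%) of the shared spleen regions in pigs passed it. Joining peaks of more libraries widens a region, and its fold in a library is that of the highest peak in it. Shared regions are thus wider and higher in part by construction. Just outside the rule, the 2292 pig regions with a peak in a single other library had median folds of 3.703 and 3.114, close to those just inside it, and a median width of 731 bp. The count rests on both spleen libraries: where one was left out and the other sufficed, it was 8325 without P348 and 10428 without P350 in pigs, and 23976 without M08 and 8477 without M22 in cattle.

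**Figure D1:**
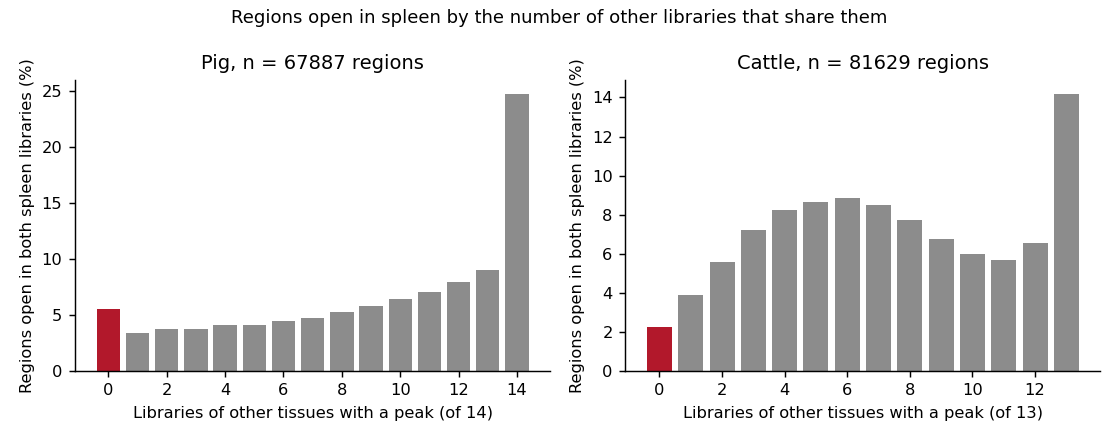
Percentage of regions open in both spleen libraries (vertical axis) by the number of libraries of other tissues with a peak in the region (horizontal axis), in pigs (left) and cattle (right). Red bars are regions with a peak in no other tissue, 5.57% in pigs and 2.22% in cattle, and the tallest bars are regions open in every library, 24.8% and 14.2%.

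By count, spleen stood in the lower part of the pig tissues. Regions open only in 1 tissue numbered 19024 in cerebellum, 10667 in skeletal muscle, 7716 in cerebral cortex, 4177 in liver, 4111 in lung, 3780 in spleen, 2009 in adipose and 398 in hypothalamus. As a share of the regions open in the tissue, the 5.57% of spleen followed cerebellum (14.7%), skeletal muscle (12.4%) and cerebral cortex (7.05%). In cattle, spleen had 1809, close to liver (1793) and cerebral cortex (1622) and below skeletal muscle (6430) and lung (14556). The cattle cerebellum count of 58894 comes from a single library, for which the rule of both animals does not apply.

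The 2 spleen lists of a species overlapped each other more than they overlapped other tissues in pigs. On the Jaccard index, the bases shared by a pair of lists over the bases in either, the pig spleen pair reached 0.3827, and the 28 pairs of a spleen with another tissue reached 0.2071 ± 0.0385 (SD), 0.2712 at most. The difference of 0.1756 was larger than the spread of pairs (one-sided exact permutation p = 0.025, rank 3 of 120 choices). In cattle the spleen pair reached 0.2645 and the 26 mixed pairs 0.1934 ± 0.0509, with the highest mixed pair at 0.2892, above the spleen pair. That difference of 0.0711 did not pass the threshold of 0.05 (one-sided exact permutation p = 0.0667, rank 7 of 105), although it did when overlap was counted as the share of peaks that touch (0.1187, p = 0.0476, one-sided exact permutation). The spleens of the 2 pigs were more alike than the pairs of 5 other pig tissues, which reached 0.2684 to 0.3588, and less alike than cerebral cortex (0.4064) and skeletal muscle (0.5364). On lists of equal length the spleen pair (0.3973) also lay below liver (0.4273) and lung (0.4051).

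Liver and lung were the tissues nearest to spleen. Their mean index with pig spleen was 0.2627 ± 0.00583 for liver and 0.2361 ± 0.0113 for lung (SD, 4 pairs each), and cerebellum was farthest at 0.1351 ± 0.0225. The 4 pairs with liver, from 0.2583 to 0.2712, all lay above the 4 with lung, from 0.2208 to 0.2474. With lists cut to equal length the order of these neighbours could not be told, at 0.2844 ± 0.00572 for lung and 0.2823 ± 0.011 for liver. In cattle, lung came first (0.258 ± 0.0323) and liver followed (0.2222 ± 0.0286) within the spread of their pairs, and hypothalamus was last (0.1173 ± 0.0256). On lists of equal length cattle liver (0.3352 ± 0.0501) came before lung (0.3086 ± 0.0459), again within the spread. Among spleen regions shared with exactly 1 other tissue, in pigs 1022 (29.7%) were shared with lung and 940 (27.3%) with liver, against 464 with cerebral cortex, and in cattle 2163 (50.2%) were shared with lung, 583 with cerebellum and 477 with liver. Long lists share more, and the cattle lists of lung and cerebellum were the longest of the species.

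Regions open only in spleen lay within or between genes rather than at their starts. In pigs 196 of the 3780 (5.19%, 95% Wilson interval 4.52 to 5.94) lay within 2 kb of a coding TSS, 56.5% lay elsewhere in genes and 36.7% were intergenic. For spleen regions shared with another tissue the TSS proximal share was 23.7%, and for regions open in every library 62.1%. A low TSS share was not particular to spleen, since regions open only in another tissue had 0.503% (hypothalamus) to 5.0% (liver). The median distance to a coding TSS was 23.7 kb with quartiles of 9.15 and 60.7 kb, and 70.1% lay within 50 kb. Over whole lists, 16.17% of peaks in P348 and 15.86% in P350 were TSS proximal, against 7.451% to 16.71% in the other libraries. Spleen had the highest mean of the 8 tissues, at 16.02% against 12.39 ± 2.66% (SD, n = 14), but the difference was within the spread of the libraries (two-sided exact permutation p = 0.0917). On lists of equal length it fell from 3.625 to 0.8286 percentage points (p = 0.367, exact permutation).

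Genes were compared by the peak bases in a window from 10 kb before to 10 kb after the gene, per Mb of peaks of the library. The test was limma on log2 of this level plus 5, spleen against the mean of the 7 other tissues, with Benjamini-Hochberg adjustment over 19634 coding genes. At an adjusted p under 0.05, 2791 genes (14.2%) were higher in spleen and 715 (3.64%) were lower. The median gene was 0.288 higher in spleen on the log2 scale, and when each library was centred on its median gene the split turned to 904 genes (4.6%) higher and 1612 (8.21%) lower. Both spleen libraries lay above all 14 others for 1670 genes (8.51%) and below all others for 181 (0.922%). The counts rest on both spleens: they fell to 188 higher and 98 lower without P348, and to 487 and 201 without P350, while 4191 were higher without the cerebellum of P350.

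The label was first checked on ETS1 and FLI1, which the study reports as expressed in spleen, and on CD79B, a B cell gene. FLI1 (chr9:55612905-55749784) had 334.6 and 284.5 peak bases per Mb in the 2 spleens, and 59.26 to 207.3 elsewhere with a median of 127.9. It was higher by 1.27 ± 0.25 on the log2 scale (SE, limma adjusted p = 0.00661), also after centring (adjusted p = 0.0263). ETS1 (chr9:55377264-55512180), its neighbour on the chromosome, had 308.3 and 216.7 in spleen and 96.33 to 169.9 elsewhere, a difference of 0.97 ± 0.22 (limma adjusted p = 0.0131, and 0.0707 after centring). For both genes the spleen libraries were the 2 highest of the 16. CD79B (chr12:15052966-15056441), a chain of the B cell receptor, had 26.84 and 27.31 in spleen, but 0 to 50.29 elsewhere with skeletal muscle of P350 highest. It did not pass the test (0.54 ± 0.36, limma adjusted p = 0.293), so 1 of the 3 markers did not separate spleen on this measure.

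Regions open only in spleen were chosen on this contrast, so they are no further check of the label. The windows of the 3 genes each held at least 1 such region, as did those of 12.0% of all coding genes. ETS1 had one in an intron at chr9:55463316-55463735 (folds 3.085 and 2.623), another at chr9:55484625-55485798 (3.543 and 2.274), and was also the nearest coding gene to 3 intergenic ones 275, 316 and 349 kb away. FLI1 had one in an intron at chr9:55638544-55639616 (3.693 and 3.155), whose centre is printed above and holds none of the marked words. The nearest coding TSS to that region, 17.0 kb away, was that of LOC100516820. The region at CD79B, chr12:15058624-15058934 (3.911 and 3.052), lay 5.62 kb from the TSS, beyond the end of the gene, and holds CCGGAAGT as its reverse complement.

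Genes of leukocytes were higher in spleen more often than genes in general. In 7 lists of such genes, 115 of 189 tested members (60.8%) rose, against 14.2% of all genes, and none fell. After centring 64 rose and 2 fell (MRC1, a macrophage mannose receptor, and GATA1, the red cell factor). Both spleen libraries lay above all others for 93 members (49.2%, against 8.51% of all genes), and the median difference was 1.06 against 0.288 over all genes. The 115 fell to 14 without spleen P348, to 40 without spleen P350, to 79 with lists of equal length and to 1 when all other libraries shared 1 mean.

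**Figure D2:**
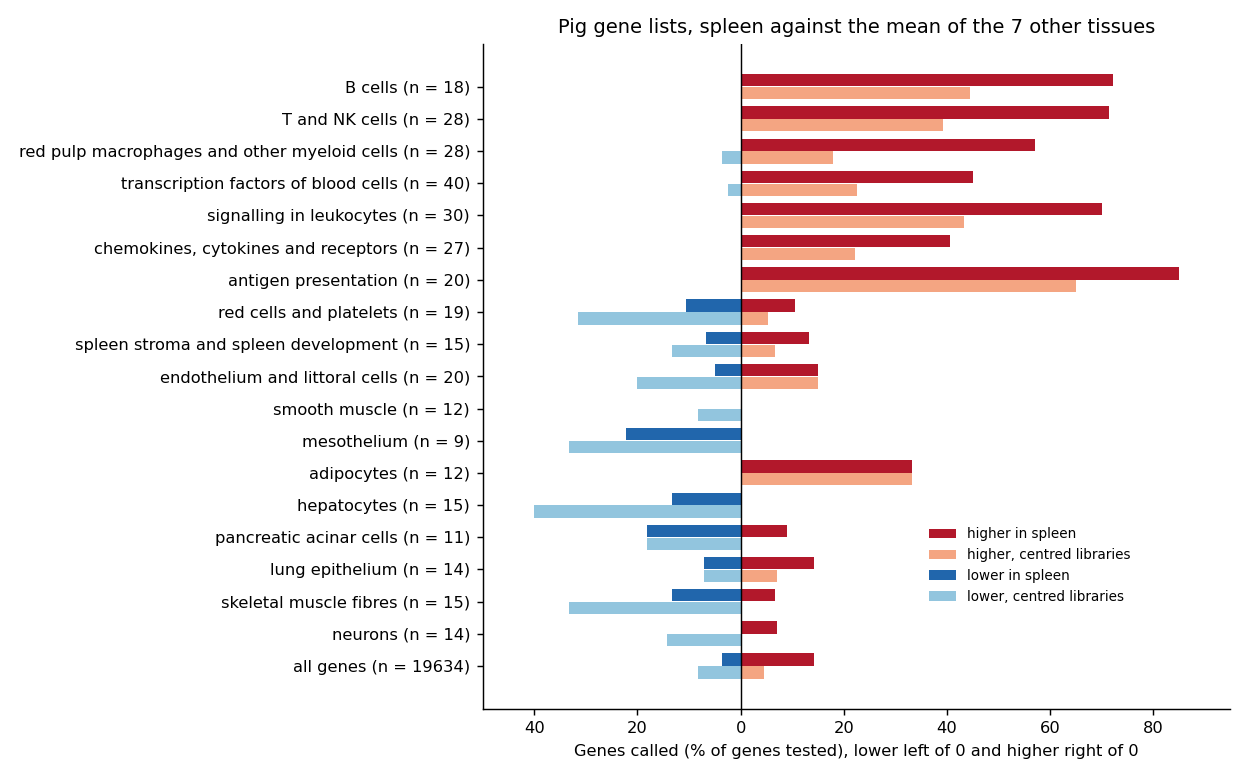
Genes called by limma in each pig gene list as a percentage of its tested genes (horizontal axis), higher in spleen to the right of 0 and lower to the left. Dark bars are the values per Mb of peaks and light bars those after centring each library on its median gene. The 7 leukocyte lists at the top reach 40.7% to 85.0% higher, against 14.2% of all genes at the bottom.

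Of 18 B cell genes, 13 rose with none lower (8 after centring), and the median difference was 1.42. MS4A1, the gene of CD20, had 50.95 and 42.73 peak bases per Mb in spleen and at most 23.82 elsewhere (2.57 ± 0.37, limma adjusted p = 0.00154). CD79A, the partner chain of CD79B, had 38.91 and 39.63 against 2.332 to 27.54 (1.40, adjusted p = 0.00266). BANK1, a B cell scaffold, rose by 1.57, but its 214.8 and 174.8 in spleen overlapped the 204.3 of a cerebellum library. PAX5 (0.54) and EBF1 (0.68), factors that set B cell identity, had adjusted p of 0.137 and 0.0669 in limma and were not called. CD79B was among the 5 members not called, as described above.

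Of 28 genes of T and NK cells, 20 rose and none fell (11 rose after centring, median difference 1.10). CD3D, a chain of the T cell receptor complex, had 63.47 and 39.65 in spleen and 0 to 24.55 elsewhere (2.12 ± 0.23, limma adjusted p = 0.000461). CD3E rose by 1.89 and TBX21, a factor of type 1 T cells, by 2.00. In all 3 genes both spleens lay above the other 14 libraries.

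Of 28 genes of macrophages and other myeloid cells, 16 rose and none fell, but only 5 rose after centring and MRC1 then fell. SPIC, which directs the red pulp macrophages that recycle iron, had 122.1 and 114.7 against 15.24 to 64.91 (1.81 ± 0.29, limma adjusted p = 0.00267). C1QB, a complement gene of macrophages, rose by 1.38. CSF1R, the receptor of macrophage growth factor, rose by 1.59 with P350 at 70.38, below the 88.42 of a skeletal muscle library. The iron genes HMOX1 (0.59, adjusted p = 0.0594) and SLC40A1 (0.97, adjusted p = 0.0344) lay on either side of the limma threshold.

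Of 40 transcription factor genes of blood cells, 18 rose, 9 after centring, with a median difference of 0.76. IKZF3, a factor of lymphocytes, had 113.8 and 108.9 in spleen and at most 47.0 elsewhere (2.18 ± 0.37, limma adjusted p = 0.00332). IKZF2 rose by 2.26, though a skeletal muscle library reached 209.0, between the spleens at 213.9 and 166.0. STAT4 (1.61), POU2F2, an octamer factor (1.43), and RUNX3 (1.31) rose as well. SPI1 had 60.2 and 29.92 against 8.082 to 73.37 and was not called (0.40, adjusted p = 0.37), and GATA1 was listed at 0 in both spleens.

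Of 30 leukocyte signalling genes, 21 rose, 13 after centring, and both spleens were highest in 22 (73.3%). PTPRC, the gene of the leukocyte antigen CD45, had 221.2 and 203.2 against 0 to 85.01 (2.39 ± 0.23, limma adjusted p = 0.000225). CD53, GRAP2 and RAC2 rose by 2.36, 1.98 and 1.84, and BTK, the kinase of the B cell receptor, by 1.37. Of 27 genes of chemokines, cytokines and their receptors, 11 rose and 6 did so after centring. CCR2, a receptor of monocytes, had 29.03 and 47.28 against 1.401 to 21.04 (1.54), while S1PR1, which guides lymphocyte exit, rose by 1.61. CXCL13, the chemokine of B cell follicles, had 13.64 and 4.014 against 0 to 23.21 and was not called (0.08).

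Of 20 genes of antigen presentation, 17 rose (85.0%), 13 after centring and 11 with lists of equal length. CTSS, a protease that prepares antigen, had 60.02 and 42.45 against 0 to 27.04 (2.08 ± 0.27, limma adjusted p = 0.00092). CD86, a ligand for T cells, rose by 1.80 and the class II gene SLA-DQA1 by 1.50. Genes of the major histocompatibility complex have near copies, so peaks called in them can be less certain.

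**Figure D3:**
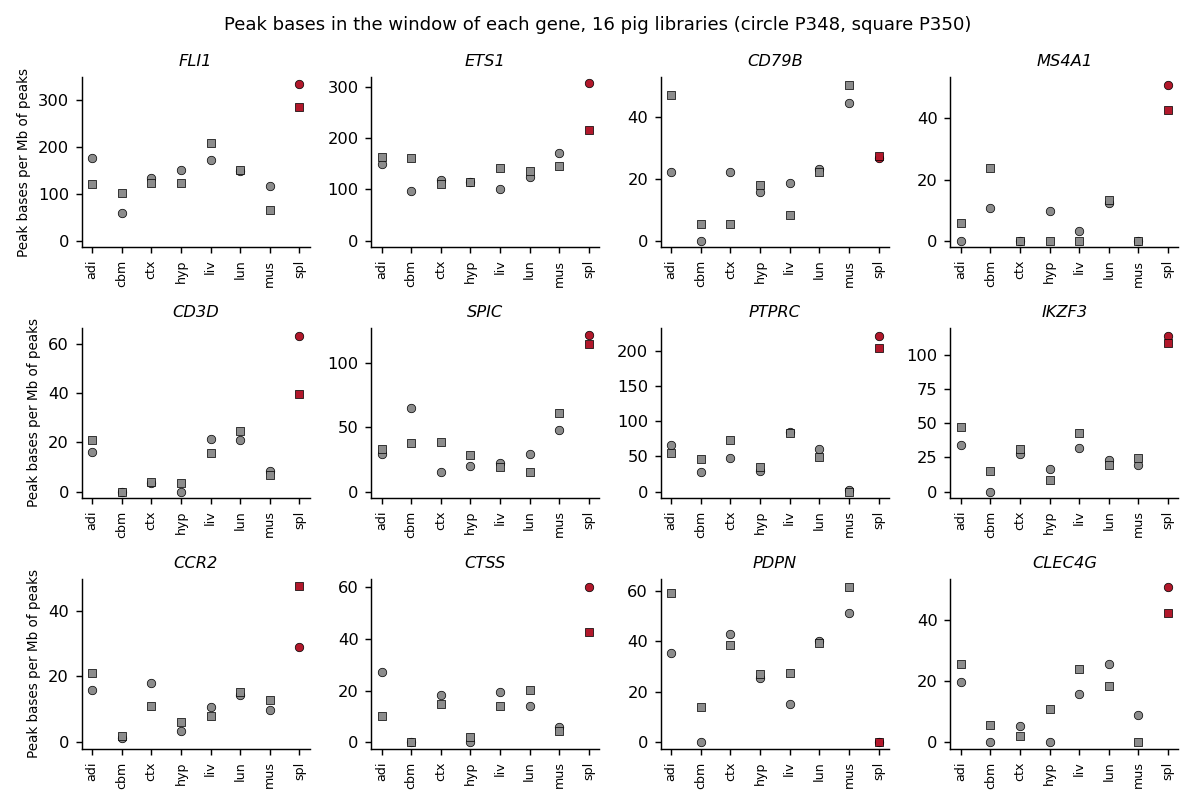
Peak bases in the gene window per Mb of peaks (vertical axes) for 12 genes in the 16 pig libraries, from left to right adipose (adi), cerebellum (cbm), cortex (ctx), hypothalamus (hyp), liver (liv), lung (lun), skeletal muscle (mus) and spleen (spl, red). Circles are P348 and squares P350. Spleen is highest in both animals for 10 genes, while CD79B overlaps other tissues and PDPN is at 0 in spleen.

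The lists of other spleen cells behaved differently. Of 19 genes of red cells and platelets, 2 rose, KLF1 (1.03) and ALAS2 (0.72), and 2 were lower, among them ANK1, which fell by 0.92 but turned to 0.30 within 50 kb of the gene start. After centring 1 rose and 6 were lower. Of 15 stroma and spleen development genes, MADCAM1, an adhesion molecule for lymphocytes, rose by 1.10 with 68.17 and 59.98 against 15.79 to 38.37, and PDGFRB rose by 0.74. PDPN, a gene of reticular and lymphatic cells, was listed at 0 in both spleens and had a median of 37.14 elsewhere (limma adjusted p = 0.000998). TLX1, needed to form a spleen in the embryo, had 13.61 and 13.4 against 2.516 to 34.85 and was not called (-0.41, adjusted p = 0.51), nor was NKX2-5 (-0.25). Of 20 endothelial genes, CLEC4G, a lectin of sinus endothelium, rose by 1.92 with 50.81 and 42.16 against 0 to 25.55, PECAM1 by 1.34 and SOX18 by 1.08, while MMRN2 fell by 1.00. After centring the endothelial list had 3 higher and 4 lower. For comparison, 14.2% of all genes rose and 3.64% fell, and 4.6% and 8.21% after centring. None of 12 smooth muscle genes was called, and 1 was lower after centring.

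Markers of cells from other organs were mostly not higher. No hepatocyte gene rose and 2 of 15 fell, no mesothelial gene rose and 2 of 9 fell, and the pancreas list had 1 higher and 2 lower of 11. The summed level of the hepatocyte list was 192.1 and 220.9 in the spleens and 159.2 to 984.4 elsewhere. Lung epithelium had 2 higher (14.3%) and 1 lower of 14, muscle fibres 1 and 2 of 15, and neurons 1 and 0 of 14. Of all genes, 14.2% were higher and 3.64% lower, so most genes in general were not higher either. No list was tested against these shares. After centring, 6 hepatocyte (40.0%), 3 mesothelial, 5 muscle fibre and 2 neuron genes were lower, against 8.21% of all genes. Adipocyte genes were the exception, with 4 of 12 higher before and after centring, namely FABP4 (1.82), PPARG (1.18), ADIPOQ (1.13) and CIDEC (0.94). The summed level of the 12 was 492.4 and 471.7 in the spleens, above the 93.13 to 448.5 of the other libraries. These include adipose tissue, so the list did not put adipose first on this measure. Whether fat on the sampled spleens had a part in this was not tested.

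Over all coding genes, the 10 with the largest rise and both spleens above every other library were ZCCHC7, UTS2B, TLR8, GPR34, GPR82, CRTAM, SLAMF6, PILRA, IL1A and LOC106510122, with differences from 2.59 to 2.97. UTS2B had a peak in its window in only 1 of the other libraries, and passed the filter only through the spleens. The median of the other libraries was 0 for UTS2B, GPR34 and GPR82. The size of their differences thus depends on the 5 added to the level. ZCCHC7, an RNA processing gene beside PAX5, had 210.1 and 187.4 peak bases per Mb in spleen and 9.556 to 54.92 elsewhere, and its window held 9 regions open only in spleen. TLR8, a sensor of foreign RNA, had 152.8 and 94.32 against 0 to 49.3. CRTAM and SLAMF6, receptors of activated lymphocytes, rose by 2.69 and 2.65. GPR34 and GPR82 lie inside CASK and close together, so their windows share peaks with each other and with CASK, which itself rose by 2.11. Of 92 genes named here with a test, 72 were called and 27 of these stayed called when any 1 of the 16 libraries was left out, among them PTPRC, MS4A1, CD3D, CTSS, CCR2, ZCCHC7, TLR8 and PDPN. When all other libraries shared 1 mean, 60 of the 72 were no longer called.

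The genes nearest to regions open only in spleen were counted next. At least 1 such region had the gene as its nearest for 2747 of 20666 coding genes (13.3%), and 2479 (12.0%) had one in their window. Among leukocyte list genes these shares were 43.9% and 40.2%, but the lists differed. The B cell list was highest, at 72.2% and 83.3%. The list of macrophages and other myeloid cells had 21.4% and 14.3%, nearer to all genes. In the antigen presentation list, 4 of 20 genes were the nearest to a region and 7 had one in their window. The lists were chosen with results of these data known, and wide genes catch more regions. TMSB4X, an actin binding gene, was nearest to 9 regions, CBLB and MYC to 8 each, AKAP13 and FUT8 to 7 each, and BANK1, BTG1, GRHPR, HDAC9 and ZEB2 to 6 each. TMSB4X had no such region in its window and was not called (0.44, limma adjusted p = 0.215). Nor were BTG1 (0.44), GRHPR (-0.33), HDAC9 (0.60) and ZEB2 (0.26). AKAP13 (0.83), FUT8 (1.55) and BANK1 were called higher, but AKAP13 not after centring. CBLB, a ubiquitin ligase that restrains lymphocyte activation, was called higher, with 269.4 and 229.2 against 17.74 to 187.1 (2.05 ± 0.39, limma adjusted p = 0.00569). The windows of AKAP13, FUT8, BANK1 and CBLB held 7, 3, 6 and 6 of these regions, and that of HDAC9 held 6. Their bases count towards the level in spleen only, so these calls are no separate result. MYC, the growth regulator, was not called (0.50, adjusted p = 0.265 in limma) and had none of its 8 regions in its window. Its strongest region, chr4:11747655-11748052 (folds 9.596 and 5.537), lay 712 kb from the TSS and holds CAGGAAGT.

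In the other printed regions, an intron of IKZF3 (chr12:22529826-22530269, folds 7.669 and 5.212) holds GAGGAAGT, and an intron of BTK 2.52 kb from its TSS (chrX:83011646-83011955, 4.675 and 4.622) holds the octamer. The CBLB intron (chr13:153569822-153570188, 5.35 and 4.101) holds CAGGAAGT. Of distal regions with a word outside masked repeats, the one with the highest fold in the weaker animal was taken for each word. For GAGGAAGT it was chr15:96416185-96416990 (7.115 and 5.682), 73.2 kb from CAVIN2. For CAGGAAGT it was chr9:126744266-126744578 (5.714 and 5.654), and for TGTGGTTT it lay in an intron of PLCL2 (chr13:4049237-4049515, 6.657 and 5.993).

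These words were then counted in all distal peaks, those farther than 2 kb from a coding TSS, in their central 200 bp and on both strands. CAGGAAGT was found in 2.966% of distal peaks in spleen P348 and 2.722% in P350, against 1.31% to 2.343% in the 14 other libraries and 1.03% of 200 bp windows of the genome. GAGGAAGT reached 3.375% and 2.746% in spleen, against 1.139% to 2.135% and 0.931% of genome windows. TGTGGTTT reached 2.717% and 2.383%, against 1.24% to 1.679% and 1.62% of genome windows. For each of the 3 words both spleens lay above every other library, at 1.63, 1.96 and 1.73 times the mean of the others. Each had a two-sided exact permutation p of 0.00833, the smallest possible, and 0.0333 after adjustment over 16 words. With the spleen label moved only within each animal, p was 0.0156. The looser word GGAANNGAA, in which a PU.1 and an interferon regulatory word are joined, also passed (6.745% and 6.273% against 5.059% to 6.272%, adjusted p = 0.0333, exact permutation), but at 1.15 times the others.

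**Figure D4:**
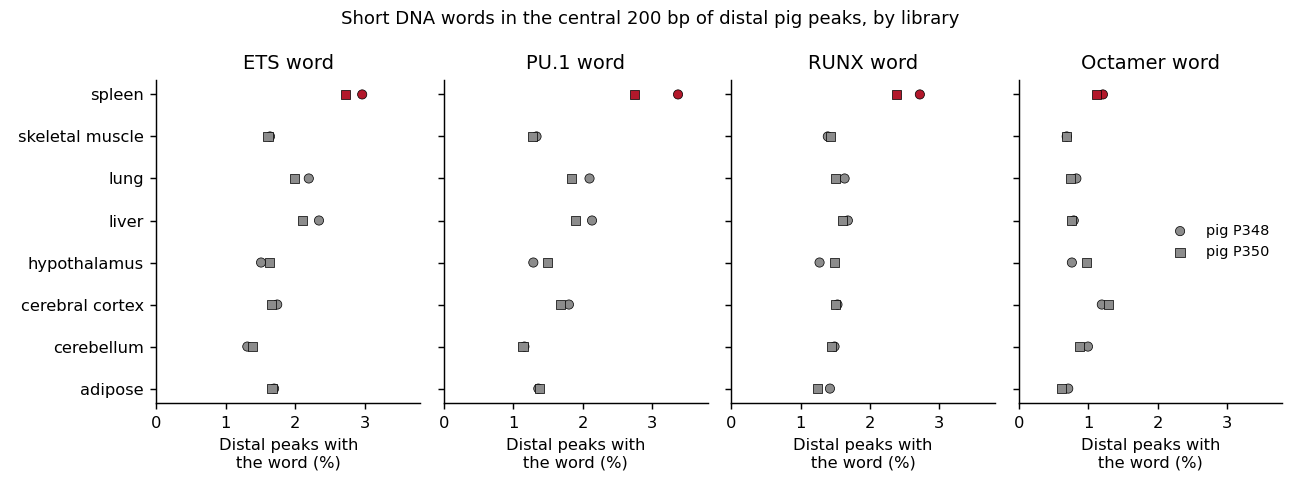
Percentage of distal pig peaks with a word in the central 200 bp (horizontal axes) by tissue for the ETS word CAGGAAGT, the PU.1 word GAGGAAGT, the RUNX word TGTGGTTT and the octamer ATGCAAAT. Circles are P348, squares P350 and red marks spleen, which is highest for the first 3 words and overlaps cerebral cortex for the octamer.

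None of the other 12 words passed in this window. The octamer ATGCAAAT was found in 1.212% and 1.119% of distal spleen peaks, below the 1.25% mean of cerebral cortex (adjusted p = 0.0953, exact permutation). The interferon word GAAANNGAA reached 7.137% and 6.322%, against 4.442% to 6.615% (adjusted p = 0.0888, exact permutation). AP-1's TGANTCA was found in 7.332% and 6.896%, inside the 5.78% to 11.93% of other tissues. GC content was 51.54% and 52.02% in the spleens, within the 47.79% to 54.58% of the others (p = 0.942, exact permutation). With words inside repeats masked in the reference left out, a check chosen after seeing the data, CAGGAAGT, GAGGAAGT and TGTGGTTT kept 1.63, 1.94 and 1.81 times the others (adjusted p = 0.0444 each, exact permutation). GGAANNGAA no longer passed (adjusted p = 0.1, exact permutation), nor did it over whole peaks, over all peaks or on lists of equal length. Some words passed only under other settings, all by exact permutation. GAAANNGAA did so in the central 100 bp (adjusted p = 0.0222) and in peaks with a q-value under 0.0001 (0.0267), where both spleens lay above every other library. Both spleens also lay above every other library in peaks with a q-value under 0.01, at 7.825% and 6.936% against 3.827% to 6.727%. CCGGAAGT did so in the central 100 bp (0.0222) and, like the octamer, in peaks with a q-value under 0.0001 (0.0382 each).

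The 3584 distal regions open only in spleen held these words more often than regions open only in other tissues, as a description without a test. TGTGGTTT was in 255 of them (7.11%, Wilson interval 6.32 to 8.0), GAGGAAGT in 194 (5.41%, 4.72 to 6.2), CAGGAAGT in 165 (4.6%, 3.96 to 5.34) and ATGCAAAT in 131 (3.66%, 3.09 to 4.32). The highest share in regions open only in another tissue was 1.63% for TGTGGTTT (cerebellum), 2.1% and 2.52% for GAGGAAGT and CAGGAAGT (lung), and 2.3% for ATGCAAAT (cerebral cortex). In distal spleen regions shared with another tissue the shares were 2.0%, 2.37%, 2.24% and 1.05%, in the same order of words. The 200 bp were central to the joined region, so in the wider shared regions they can lie away from the centre of the spleen peak. Outside masked repeats the spleen shares were 5.27%, 4.46%, 3.96% and 2.29%, and for the octamer the 1.86% of cerebral cortex was then close. Of the 3584 regions, 702 (19.6%) held at least 1 of the 4 words and 43 (1.2%) held 2 or more. Regions with and without a word had similar folds, for example medians of 3.865 and 3.724 in P348 for GAGGAAGT.

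**Figure D5:**
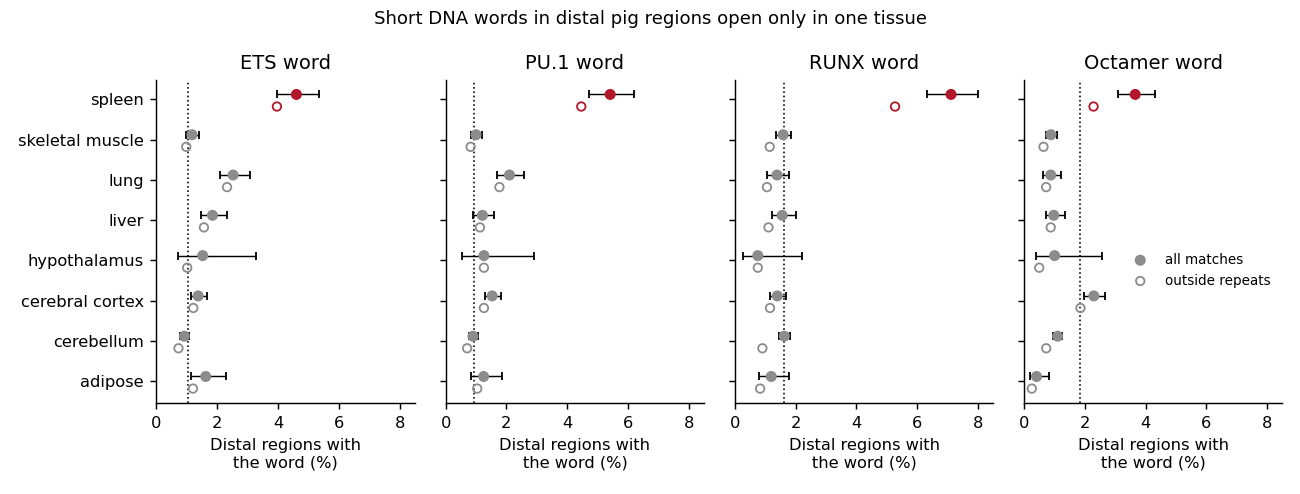
Percentage of distal pig regions open only in 1 tissue that hold each word in the central 200 bp (horizontal axes). Filled points are all matches with 95% Wilson intervals, open points are matches outside masked repeats, and the dotted line is the share of genome windows with the word. Spleen (red) reaches 4.6%, 5.41%, 7.11% and 3.66%.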

How the data were processed

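Peak lists of 31 ATAC-seq libraries, 4 of them from spleen, were assigned to a species and a tissue by their titles, with the animal as replicate. Same-named samples come from 1 animal, so names pair samples across tissues. Over 28 pairs of pig tissues the correlation of same-animal deviations was -0.215 to 0.158. The submitters' processing notes name Trim Galore 0.4.5, BWA 0.7.17, SAMtools 1.10 and Picard 2.18.17, and peaks were called by the authors per library with MACS2 in broad mode at a q-value limit of 0.05. A shift of read ends is not given in the sources used here. The deposited score is about 10 times −log10 of the q-value. The fold is a ratio over the local background, deposited as a mean over the peak. The −log10 p-value and −log10 q-value columns deposited by the authors are averages as well. A deeper library can have more and weaker peaks, and depth was not adjusted for.

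Pig genes were those of NCBI annotation release 106 of Sscrofa11.1, the assembly of the files, and all 270 sequence names in the lists were matched to it. The study used another annotation. Tests used limma 3.58.1 in R 4.3.3 on log2(peak bases per Mb of peaks + 5) for genes with a peak in the window in at least 2 libraries. Exact permutations used Python 3.11.15 with numpy 2.4.6, pandas 2.3.3, scipy 1.17.1 and numba 0.67.0. On simulated data limma recovered 18% of genes changed by 1 and 93% of those changed by 2 on the log2 scale, with 5 false calls. There, unchanged genes had the same mean in all libraries, with noise set by the spread between animals. Differences among the other tissues were not simulated, so the number of false calls in the real data cannot be read from it. Intervals cover counting error only. Named genes were members of the lists (the largest called changes and defining genes), ETS1, FLI1 and CD79B, the 10 highest and 5 lowest genes outside the range of the other tissues, and the 10 nearest to most regions. The members, lists and words were chosen with earlier results of these data known. Alternatives covered the pseudocount, filter, window, q limit, list length, means, replicate block, tissues and libraries left out. Nothing was tested on cattle genes, and some genes that the rule names are not reported here.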

Additional observations from a re-analysis of the deposited data

Results flagged for a closer look

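Pig and cattle spleens departed from the other tissues of their own animals in opposite directions in the size of their lists. On the log2 scale, spleen minus the mean of the other tissues of the animal was -0.466 in P348 and -0.506 in P350 for the number of peaks, but 0.217 in M08 and 0.613 in M22. For the bases covered it was -0.562 and -0.572 in the pigs and 0.376 and 0.81 in the cattle. For the median peak width it was -0.14 and -0.0404 in the pigs and 0.288 and 0.264 in the cattle. All 4 animals are listed, and the difference between the species was not tested.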

How the results depend on the processing

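The number of pig genes higher in spleen was 1541 at a q-value limit of 0.0001, 1089 with lists of equal length, 34 with 1 mean for all other libraries and 904 with centred libraries, against 2791, and 188 to 4191 with a library left out. Genes lower numbered 324 with lists of equal length, 15 with 1 mean and 1612 centred, against 715, and 98 to 792 with a library left out. Centring was chosen after seeing the data. In the 1-mean fit the spread between tissues enters the error by construction. With the animals paired as a replicate block, 2450 were higher and 641 lower, p for the TSS share was 0.109 and for CAGGAAGT 0.0156, both on their former side of the threshold. Of the leukocyte list genes 103 were then higher and 1 named gene was no longer called, and the block was not run for overlaps and regions. Regions open only in spleen numbered 8629 in pigs and 8643 in cattle when another tissue had to have a peak in both animals, 5948 and 1111 with lists of equal length, and 243 in cattle at a q-value limit of 0.0001. With a library left out they numbered 3812 to 10428 in pigs and 1843 to 23976 in cattle.

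The cattle overlap difference passed as a share of peaks (0.1187). With a library left out it was 0.0636 to 0.07666, and 0.1687 to 0.18 in pigs. The TSS share difference was 3.245 to 3.958 percentage points with a library left out, and passed without liver P348 (p = 0.0476, exact permutation) or skeletal muscle P350 (3.958, p = 0.0286). The CAGGAAGT difference was 0.9743 to 1.218 points, and without a spleen library its p of 0.0667 is the smallest possible. Of the named genes, ANK1 turned to 0.30 within 50 kb of the gene start. Read depth, which was not used here, limits which weak peaks are listed.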

Other observations

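Genes of the X chromosome were frequent among those lower in spleen. Of the 5 largest falls with both spleens below every other library, 4 lay on the X, and the fifth was HS3ST5. FGF13, an intracellular growth factor homologue, had 16.37 and 7.894 peak bases per Mb in spleen and 49.65 to 397.6 elsewhere (limma adjusted p = 0.000146). TSPAN7 and CHRDL1 were listed at 0 in both spleens. Among 712 tested X genes, 82 (11.5%) were lower, against 633 of 18922 (3.35%) elsewhere, and 126 (17.7%) were higher, against 14.1%. The X held 1.57% and 1.37% of peak bases in the spleens, within the 1.13% to 2.27% of the other libraries. It also had the highest share of spleen regions open only in spleen, 103 of 1185 (8.69%), against 4.21% to 6.53% on the autosomes.

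A peak within 2 kb of the TSS in both spleens and in no other library was found at 25 coding genes, a set chosen after its values were seen. It held CD79A and FCRLA of B cells, BTK, CCR2, LPXN, SATB1, NFKB1, TMEM156, LY49, a receptor of NK cells, TFRC and the red cell gene EPB42. It also held SH2D3C, HHIPL2, NPW, SLC17A3, TMPRSS7, ZNF81, NUPR2 and SOWAHD. In limma 18 of the 25 were called higher, against 14.2% of all genes. At 14 both spleens lay above all other libraries, against 8.51% of all genes. The peaks that chose these genes lie in the windows that limma scored, so the calls are no separate result. LOC100519314 and LOC106507313 had a peak in the window in 0 and 1 of the other libraries, and passed the filter only through the spleens. NFKB1, EPB42, TFRC, SH2D3C, HHIPL2, NPW and LOC106505211 were not called, and the estimate for LOC106505211 was lower in spleen (-0.537). By contrast, 14411 genes had such a peak in both spleens and 11313 had one in every library.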
